A study of Mus musculus with 4 samples.

Results

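The genes followed here are Ly6a, Ly6c1, Ly6c2, Ly6d, Ly6e and Ly6g, 6 members of the mouse lymphocyte antigen 6 (Ly6) family among the 31053 genes counted in cells of tumour-draining lymph nodes. They were found by their symbols, and their unique molecular identifiers (UMIs, the tags that count single captured RNA molecules) were summed per cell class and library. The 6 genes were chosen for how their levels differ between cell classes, so the levels below describe that pattern and carry no test. The study used C57BL/6J mice with B16F10 melanoma tumours on both upper anterior thighs. The treated group was 2 mice given indoximod at 2 mg/ml in drinking water and ibrutinib at 350 ug i.p. each day from day 9, and cyclophosphamide at 150 mg/kg i.p. on day 10. The control group was 2 tumour-bearing mice without treatment. Inguinal nodes were taken from both groups 48 h after the cyclophosphamide day, and single cells were profiled with 10x 3′ version 3 chemistry.

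Ly6 proteins are small, mostly lipid-anchored surface proteins that share 1 cysteine-rich fold, and their genes lie side by side on the chromosome. Several serve as everyday flow cytometry markers: the Ly6C antigen for inflammatory monocytes and antigen-experienced T cells, Ly6G for neutrophils, and the Ly6a product, stem cell antigen, for blood stem cells and for cells exposed to interferon. Ly6d marks lymphoid progenitors committed to the B lineage, and Ly6e, also known as thymic shared antigen, is induced by interferon and restricts the entry of several viruses.

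The count table held 7002, 6978, 7013 and 9831 barcodes in libraries 1, 2, 3 and 4, with 39589629 to 53643414 UMIs a library, where the labels state about 2000 cells per sample. Which mouse or group each library number stands for is not given, so treated and control mice were not compared. The libraries are given one by one, and treatment, mouse and preparation cannot be told apart in the spread between them. Of 30824 barcodes, 26096 had at least 300 genes and at most 10% mitochondrial UMIs. A gate on marker genes, none of them a Ly6 gene, placed 18083 of these cells in 20 classes, from 8581 B-like cells and 4161 naive-like CD8 T cells down to 17 neutrophil-like and 10 plasma cell-like cells. Cd79a and Cd3e were themselves gating markers, so the gate largely sets their shares. Cd79a had a UMI in 99.8% of B-like cells and 4.16% of naive-like CD4 T cells, and Cd3e in 1.41% and 88.6%. Germinal centre B-like cells numbered 131, 133, 5 and 3 in libraries 1 to 4, and 10 of the 17 neutrophil-like cells were in library 2. Libraries shared few barcode sequences: 86 occurred in 2 libraries, 61 of them among the cells kept.

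All 6 genes lie on chromosome 15 within 397.1 kb (build mm10, GENCODE release M21). In order, Ly6d is at chr15:74762056-74763620 on the minus strand, Ly6e at chr15:74955051-74959905 on the plus strand, Ly6a at chr15:74994877-74998031 on the minus strand, Ly6c1 at chr15:75044018-75048830 on the minus strand, Ly6c2 at chr15:75108158-75111970 on the minus strand and Ly6g at chr15:75155240-75159126 on the plus strand. All are annotated as protein-coding. Their transcripts were 72.8% to 87.8% identical in pairs including the neighbour Ly6i, except Ly6c1 and Ly6c2, which were 97.57% identical over 822 aligned bases. In the last 400 bases of these transcripts, where 3′ reads fall, 11.25% of 90-base windows were shared between Ly6c1 and Ly6c2 and 0% in every other pair. How reads that match both genes were treated is not given in the sources used here, so a small exchange of counts between Ly6c1 and Ly6c2 cannot be seen in the table.

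Each of the 6 genes had its own order of classes, given in UMIs per 1000000 UMIs of the class (CPM), summed over the 4 libraries. Ly6c1 was highest in naive-like CD4 T cells, at 145 CPM (95% interval 139 to 152). Ly6c2 was highest in plasmacytoid DC-like cells at 2703 CPM (2547 to 2867), followed by monocyte-like cells at 1942 CPM (1835 to 2053) and memory-like CD8 T cells at 1341 CPM (1318 to 1366). These intervals are exact Poisson ones and cover counting error only. The order of these first 2 classes is that of the sums: in libraries 3 and 4 Ly6c2 was 3434 and 3175 CPM in plasmacytoid DC-like cells, and 3497 and 3711 CPM in monocyte-like cells. Summed over libraries, Ly6d, Ly6a and Ly6e were also highest in plasmacytoid DC-like cells, at 3450, 2022 and 2371 CPM. This order is that of CPM. With TMM factors, an alternative scaling, B-like cells exceeded plasmacytoid DC-like cells in Ly6e in libraries 2 and 3 and in Ly6d in library 3. Ly6g was counted almost wholly in neutrophil-like cells.

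**Figure D1:**
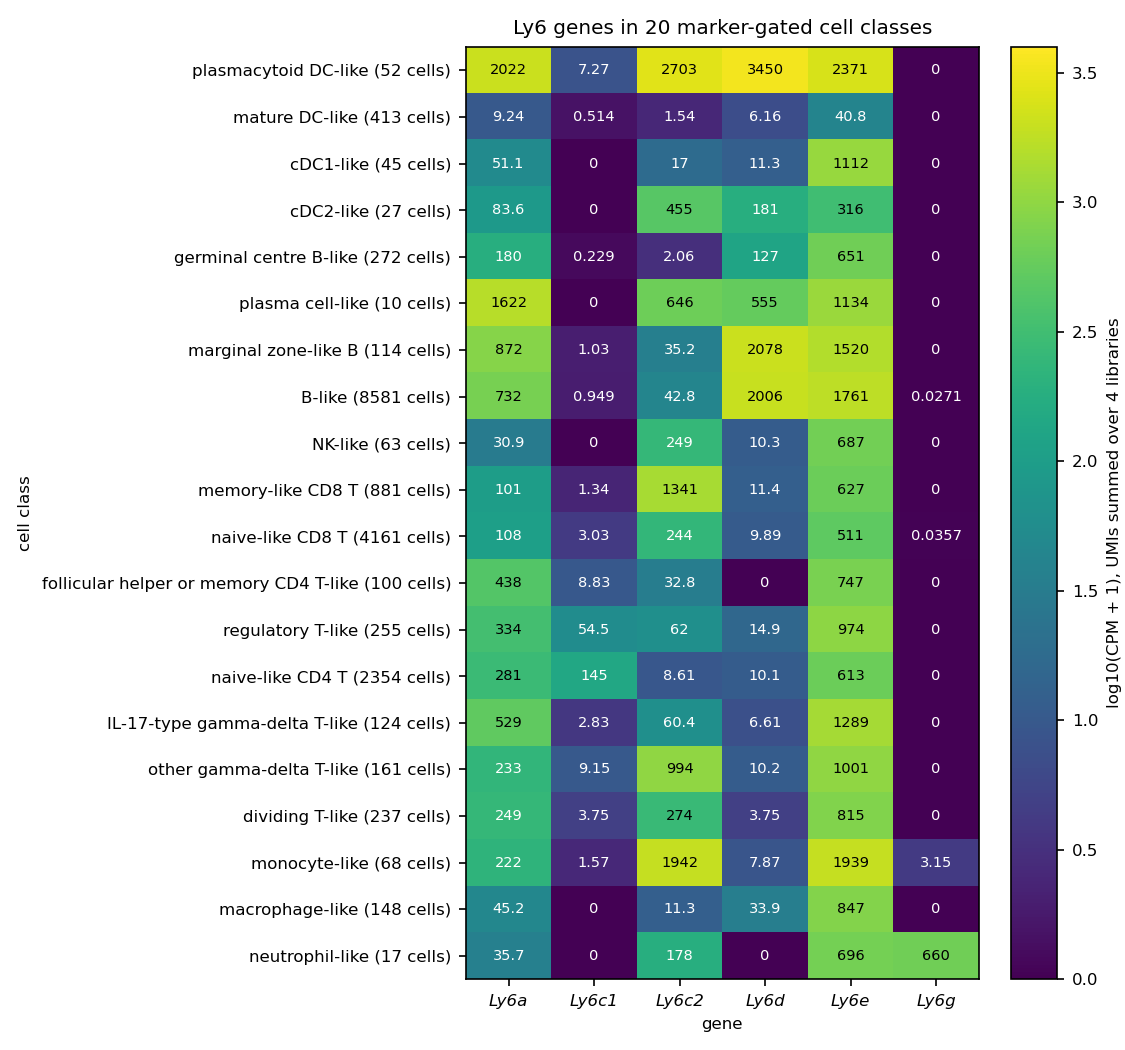
Level of each Ly6 gene (columns) in 20 marker-gated cell classes (rows, with cell numbers); the printed number is CPM of UMIs summed over 4 libraries and the colour is log10(CPM + 1). Ly6c1 stands out in naive-like CD4 T cells (145 CPM) and Ly6c2 in plasmacytoid DC-like, monocyte-like and memory-like CD8 T cells, while Ly6e is above 300 CPM in every class but mature DC-like cells (40.8 CPM).

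Between classes, a gene was called when each usable library put its ratio at 1.5-fold or more to the same side, over at least 3 libraries. A library was usable for a gene with at least 10 of its counts over both classes and at least 10 cells in each class. This is a rule on size and repeatability over libraries, not a significance test, and the share of all tested genes that met it is given beside each count of Ly6 genes. The 6 genes were chosen on such contrasts, so nothing is read from how their count compares with that share. The share of all genes whose library values did not overlap between classes was not counted, so nothing is read from such gaps. Ly6g had too few counts to be tested in any contrast.

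Memory-like CD8 T cells, gated on at least 4 of 7 markers of antigen experience such as Cxcr3, Il2rb and Eomes, had far more Ly6c2 than naive-like CD8 T cells, which had at most 2 of those markers. In libraries 1 to 4, Ly6c2 stood at 1237, 1132, 1626 and 1363 CPM in memory-like CD8 T cells, against 211, 224, 249 and 276 CPM in naive-like CD8 T cells. The groups did not overlap: the lowest memory-like value was above the highest naive-like one, and the log2 ratio was 2.46 (2.418 to 2.504), from 2.30 to 2.71 over libraries. Ly6c2 was the 1 called gene of 5 Ly6 genes tested, where 3.37% of 10206 genes were called in this contrast, 2.29% higher and 1.08% lower. With each cell thinned to 1500 UMIs, 70.4% of memory-like and 19.3% of naive-like CD8 T cells had a Ly6c2 UMI. Unthinned, the shares were 89.4% and 35.2% at median depths of 9605 and 6591 UMIs. In naive-like CD4 T cells, which had little Ly6c2, the thinned share was 0.978% and the unthinned 3.31% at a median of 5695 UMIs.

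The other Ly6 genes did not separate these classes by the same rule. Ly6a had 71.3, 97.9, 124 and 109 CPM in memory-like CD8 T cells, against 79.6, 87.0, 136 and 118 CPM in naive-like CD8 T cells, a log2 ratio of -0.09. Ly6e was slightly higher in memory-like cells in each library, with a log2 ratio of 0.30 (0.25 to 0.34), short of 1.5-fold. Ly6d stood at 11.4 CPM in memory-like and 9.89 CPM in naive-like CD8 T cells, but 56 of the 102 memory-like UMIs came from 1 library 2 cell that also held plasmacytoid DC markers, without which the level was 5.13 CPM. Of 16 listed memory and effector genes tested, 7 were called higher and 0 lower, led by Ccl5, Cxcr3 and Eomes, which were gating markers. Of 29 interferon-stimulated genes, 1 was called higher (Mx1, log2 0.92) and 0 lower, with a median log2 ratio of -0.07 against -0.02 over all genes tested.

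Summed over libraries, Ly6c2 was higher with each further memory marker a CD8 T cell held. The level was 39.1 CPM in 212 cells with 0 of the 7 markers, 201 CPM with 1, 275 CPM with 2, 476 CPM with 3, 1044 CPM with 4, 1544 CPM with 5 and 1641 CPM with 6 or more. The last step went the other way in library 4, with 1586 CPM at 5 markers and 1443 CPM at 6 or more. Cells with 3 markers belonged to neither class, and their level of 401.8 to 537 CPM over libraries lay between both. Ly6a, in contrast, stayed between 70.8 and 112 CPM over the same 7 steps. Deeper cells show more markers, and the median depth ran from 5214.5 UMIs at 0 markers to 11351.5 UMIs at 6 or more. CPM scales the Ly6c2 level but not the number of markers seen, and the part of depth in this order was not tested. The 212 cells with 0 markers held Ly6c1 at 33.0 CPM, against 1.11 CPM at 1 marker.

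**Figure D2:**
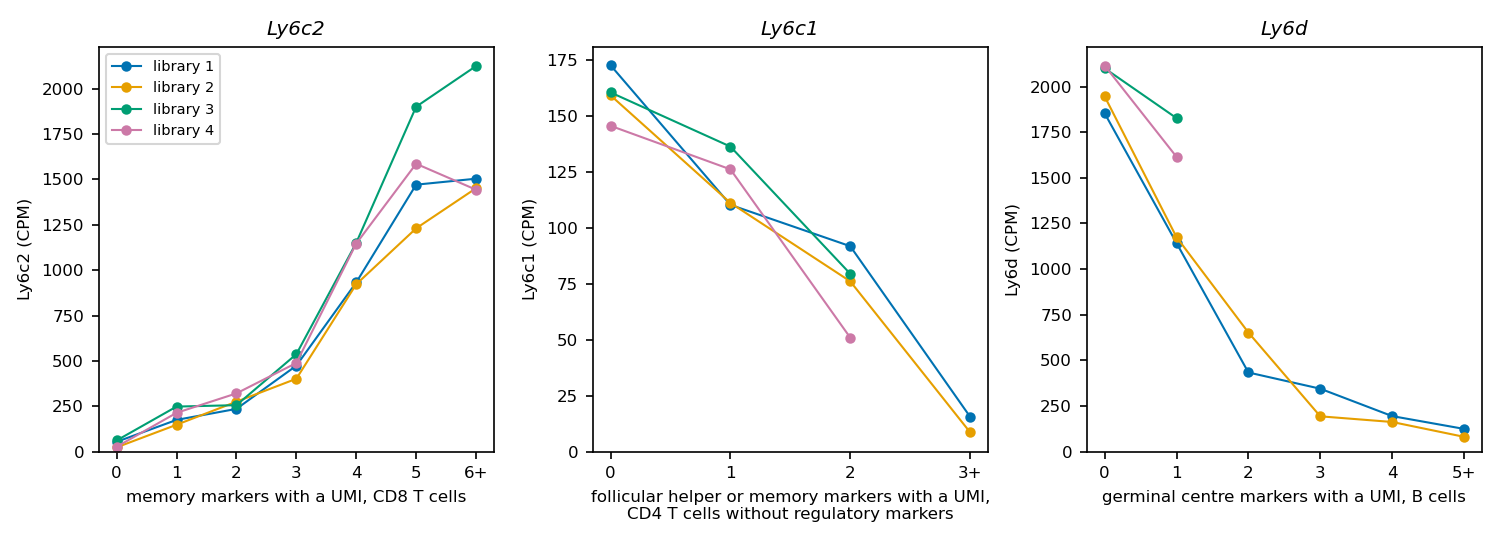
Level (CPM, vertical axis from 0) of Ly6c2 in CD8 T cells, Ly6c1 in CD4 T cells without regulatory markers and Ly6d in B cells, by the number of memory, follicular helper or germinal centre markers with a UMI in the cell (horizontal axis); each line is 1 library and points with fewer than 10 cells are left out. Ly6c2 rises with memory markers in each library up to 5 markers, while Ly6c1 falls to 15.7 and 8.72 CPM at 3 or more follicular helper markers in the 2 libraries shown and Ly6d to 125 and 81.4 CPM at 5 or more germinal centre markers in libraries 1 and 2.

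Naive-like CD8 and CD4 T cells carried the 2 near-identical Ly6C genes in opposite ways. Ly6c2 had 211, 224, 249 and 276 CPM in naive-like CD8 T cells, against 5.83, 4.88, 13.5 and 8.88 CPM in naive-like CD4 T cells. Ly6c1 had 3.03, 2.92, 4.17 and 2.12 CPM in naive-like CD8 T cells, against 149.9, 140.2, 153 and 137 CPM in naive-like CD4 T cells. For both genes the values of the classes lay far apart, with log2 ratios of 4.82 (4.56 to 5.10) for Ly6c2 and -5.58 (-5.91 to -5.27) for Ly6c1. Ly6a was also called lower in naive-like CD8 T cells, with 79.6, 87.0, 136 and 118 CPM against 209.5, 241, 344 and 308 CPM in naive-like CD4 T cells and a log2 ratio of -1.38. Thus 3 of 5 Ly6 genes tested were called, where 4.86% of 10343 genes were, 2.48% higher and 2.39% lower. Ly6e, at 511 CPM in naive-like CD8 and 613 CPM in naive-like CD4 T cells, was not called. Of 29 interferon-stimulated genes, 1 was called higher and 2 lower in naive-like CD8 T cells, with a median log2 ratio of -0.02 against -0.07 over all genes.

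Single cells showed the same split. After thinning, 387 of 2352 naive-like CD4 T cells had a Ly6c1 UMI without one of Ly6c2, 20 had Ly6c2 alone and 3 had both. Among 881 memory-like CD8 T cells, 620 had Ly6c2 alone, 1 had Ly6c1 alone and 0 had both. With 1 of the genes so rare in each class, few cells could hold both, so nothing is read from that number. Ly6c1 was seen in 0.130% of thinned B-like cells and 0.396% unthinned (median depth 3783 UMIs), against 16.6% and 37.2% of naive-like CD4 T cells (median depth 5695 UMIs).

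The promoters of Ly6c1, Ly6c2 and Ly6g are shown because these close relatives were found in different classes: naive-like CD4 T cells, CD8 T cells and myeloid classes, and neutrophil-like cells. Each is the 250 bases before the most upstream listed start, 5′ to 3′ on the gene's strand, from RefSeq (GRCm38.p6): Ly6c1 at chr15:75048838-75049087 (minus), Ly6c2 at chr15:75111972-75112221 (minus) and Ly6g at chr15:75155011-75155260 (plus). Capitals mark the motif GAGGAAGT in Ly6c2 and Ly6g, and in Ly6c1 the stretch aligned with it. ETS factors bind a GGAA core, which the Ly6c1 stretch holds too, so that core does not set the promoters apart.
Ly6c1 promoter: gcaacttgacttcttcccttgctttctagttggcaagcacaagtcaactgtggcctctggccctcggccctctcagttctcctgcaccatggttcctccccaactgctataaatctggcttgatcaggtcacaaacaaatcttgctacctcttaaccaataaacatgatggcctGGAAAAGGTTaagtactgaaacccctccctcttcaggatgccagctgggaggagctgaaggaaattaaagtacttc
Ly6c2 promoter: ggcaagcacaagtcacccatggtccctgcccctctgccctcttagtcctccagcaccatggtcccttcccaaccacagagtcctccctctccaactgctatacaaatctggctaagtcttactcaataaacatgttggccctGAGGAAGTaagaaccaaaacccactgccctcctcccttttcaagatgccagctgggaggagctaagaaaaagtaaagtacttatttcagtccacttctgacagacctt
Ly6g promoter: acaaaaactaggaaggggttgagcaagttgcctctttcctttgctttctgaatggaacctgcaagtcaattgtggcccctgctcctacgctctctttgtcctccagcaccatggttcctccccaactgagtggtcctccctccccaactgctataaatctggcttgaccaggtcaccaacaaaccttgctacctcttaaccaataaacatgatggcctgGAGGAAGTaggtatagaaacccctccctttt
The motif was chosen after these sequences had been read. Searched on both strands, GAGGAAGT had 1 match in Ly6c2, starting 108 bases before the gene's start, 1 in Ly6g, starting 31 bases before, and these distances are to the RefSeq start, which for Ly6g lies inside the GENCODE gene given above. There were 0 matches in Ly6c1, where the aligned letters read GGAAAAGGTT. Of 32851 RefSeq promoters of this length, 2.441% held GAGGAAGT. An interferon-stimulated response element type motif (GAAA, any 2 bases, GAAA) was in 2.977% of promoters and a STAT type motif, TTCNNNGAA, in 7.02%, and each in 0 of these 3. Promoter identity was 80.95% between Ly6c1 and Ly6c2, 85.78% between Ly6c1 and Ly6g and 81.29% between Ly6c2 and Ly6g. A match of letters is a description and shows no binding.

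Within CD4 T cells, Ly6c1 was lower in both differentiated classes than in naive-like cells. In regulatory T-like cells, gated on Foxp3, Il2ra, Ikzf2 and Ctla4, Ly6c1 had 38.5, 60.1, 97.1 and 27.1 CPM, against 149.9, 140.2, 153 and 137 CPM in naive-like CD4 T cells. The highest regulatory value stayed below the lowest naive-like one, and the log2 ratio was -1.41 (-1.73 to -1.12), from -2.34 to -0.66 over libraries. It was the 1 called gene of 5 tested, where 7.53% of 9208 genes were called, 6.13% higher and 1.4% lower. The call was lost at a 2-fold minimum and with the stricter cell filter. Ly6e, at 974 CPM in regulatory T-like and 613 CPM in naive-like CD4 T cells, had a log2 ratio of 0.67 (0.59 to 0.74) but fell short of 1.5-fold in library 4, where it was 0.43.

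Ly6c2 in regulatory T-like cells rested on 1 cell. Its values were 2.57, 203, 5.11 and 14.6 CPM in libraries 1 to 4, and 96 of all 108 UMIs came from 1 library 2 cell with 5 of 6 plasmacytoid DC markers and 5 of 6 T cell markers. Without that cell the class level was 6.95 CPM, against 8.61 CPM in naive-like CD4 T cells. Ly6a in regulatory T-like cells was 367, 400.3, 327 and 248 CPM, against 209.5, 241, 344 and 308 CPM in naive-like CD4 T cells. It was higher in libraries 1 and 2 and lower in libraries 3 and 4. Without the same library 2 cell, Ly6a in that library was 326 CPM. Of 27 interferon-stimulated genes, 2 were called higher and 2 lower in regulatory T-like cells, with a median log2 ratio of 0.37 against 0.23 over all genes.

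Follicular helper or memory CD4 T-like cells, with at least 3 markers such as Icos, Cxcr5, Pdcd1 and Bcl6, had nearly no Ly6c1. It stood at 10.9, 4.64, 10.1 and 8.91 CPM, from 7 counts in all, against 149.9, 140.2, 153 and 137 CPM in naive-like CD4 T cells, and the log2 ratio was -4.04 (-5.35 to -2.99). Every library showed a lower value. Ly6d had 0 counts in these 100 cells and 138 in naive-like CD4 T cells, so it was at least 2.66-fold lower if 3 counts over the class are taken as the floor. Nothing is read from this call: the 10.1 CPM of naive-like CD4 T cells is close to the 9.89 CPM of naive-like CD8 T and 10.3 CPM of NK-like cells, and 0 of 100 cells allows a share of up to 3%, against 5.48% of naive-like CD4 T cells with a UMI. By the rule these were the 2 called genes of 5 tested, where 5.99% of 9042 genes were called, 3.96% higher and 2.03% lower. The Ly6d call was lost at a minimum of 30 counts and when at least 5 expected counts were asked for in the smaller class. Ly6a was 342, 478, 312 and 784 CPM, against 209.5, 241, 344 and 308 CPM in naive-like CD4 T cells, and higher in 3 of 4 libraries without being called. Of 26 interferon-stimulated genes, 1 was called higher (Ifi27l2a, log2 1.51) and 0 lower, with a median of 0.06 against 0.24 over all genes.

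Among CD4 T cells without regulatory markers, Ly6c1 declined step by step: 159 CPM with 0 follicular helper markers, 121 CPM with 1, 76.5 CPM with 2 and 12.4 CPM with 3 or more. Ly6a was 282, 274, 296 and 430 CPM over the same steps. By number of regulatory markers, Ly6c1 was 136 CPM with 0, 55.3 CPM with 1, 80.0 CPM with 2 and 39.1 CPM with 3 or more, which is no steady order.

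Gamma-delta T-like cells divided on Ly6c2. IL-17-type cells, with at least 1 marker such as Cd163l1 or Il23r, had 23.5, 12.4, 85.3 and 68.4 CPM, against 473, 884, 1665 and 1151 CPM in the other gamma-delta T-like cells. No value of the IL-17-type came near the lowest of the others, and the log2 ratio was -4.04 (-4.43 to -3.68). Ly6c2 was the 1 called gene of 3 tested, where 8.09% of 5056 genes were called, 5.18% higher and 2.91% lower. Ly6a ran the other way in each library, with 587, 409, 618 and 474 CPM in IL-17-type cells, against 125, 293, 260.2 and 276 CPM in the others. Its log2 ratio was 1.18 (0.96 to 1.41), but library 2 gave 0.48 and so no call; without library 2 it was called. Ly6e was 1289 CPM in IL-17-type and 1001 CPM in other gamma-delta T-like cells, a log2 ratio of 0.37. Of 20 interferon-stimulated genes, 0 were called higher and 3 lower in IL-17-type cells, with a median of -0.23 against 0.18 over all genes.

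NK-like cells, which share cytotoxic genes with memory CD8 T cells, had less Ly6c2 and Ly6a than memory-like CD8 T cells. Ly6c2 had 102, 27.0, 357 and 332 CPM in NK-like cells, against 1237, 1132, 1626 and 1363 CPM in memory-like CD8 T cells, with a log2 ratio of -2.43 (-2.73 to -2.14). Of the 97 NK-like counts, 32 came from 1 library 3 cell, and the level without it was 169 CPM. Ly6a rested on 12 NK-like counts, with 16.9, 27.0, 42.4 and 22.1 CPM against 71.3, 97.9, 124 and 109 CPM, and lost its call with 1 more marker in the gates and after thinning. These were 2 of 4 Ly6 genes tested, where 12.8% of 8405 genes were called, 7.84% higher and 5.01% lower. Ly6e did not differ by the rule, at 687 CPM in NK-like and 627 CPM in memory-like CD8 T cells. Dividing T-like cells held Ly6c2 at 241, 171, 226 and 447 CPM and Ly6a at 199.8, 168, 300.05 and 299 CPM, and were in no contrast.

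B-like cells had more Ly6d, Ly6a and Ly6e than naive-like CD4 T cells. Ly6d had 1846, 1934, 2096 and 2095 CPM in B-like cells, against 10.4, 7.67, 7.31 and 14.1 CPM in naive-like CD4 T cells, a log2 ratio of 7.64 (7.40 to 7.89). After thinning, 88.5% of B-like cells had a Ly6d UMI and 1.70% of naive-like CD4 T cells; unthinned the shares were 96.9% and 5.48% at median depths of 3783 and 5695 UMIs. Ly6e had 1754, 1800.3, 1832 and 1685 CPM in B-like cells, against 555, 604, 661 and 618 CPM in naive-like CD4 T cells, a log2 ratio of 1.52 (1.49 to 1.56). Ly6a had 486, 497, 930.4 and 903 CPM in B-like cells, against 209.5, 241, 344 and 308 CPM in naive-like CD4 T cells, a log2 ratio of 1.38 (1.33 to 1.43). Library values of these genes did not overlap between the classes. The share of all genes without overlap was not counted, so nothing is read from this.

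Ly6c2 was also called higher in B-like cells, at 18.4, 14.0, 79.4 and 50.3 CPM against 5.83, 4.88, 13.5 and 8.88 CPM in naive-like CD4 T cells, while Ly6c1 was called lower, at 0.949 CPM against 145 CPM. The Ly6c2 level is low, 3.00% of thinned B-like cells had a UMI of it, and 216 of its 1578 UMIs came from 1 library 3 cell, without which that library had 55.8 CPM. The call was lost after thinning and with the stricter cell filter. All 5 Ly6 genes tested were called, 4 higher and 1 lower, where 26.4% of 11059 genes were called in this contrast between lineages, 16.7% higher and 9.73% lower. Of 29 interferon-stimulated genes, 5 were called higher and 2 lower in B-like cells, with a median log2 ratio of 0.45 against 0.14 over all genes. Marginal zone-like B cells, gated on Fcrl5, Cr2, S1pr3, Dtx1 and Cd1d1, had Ly6d at 1656, 1771, 2100 and 2418 CPM, against 1846, 1934, 2096 and 2095 CPM in B-like cells, lower in libraries 1 and 2 and higher in library 4. They had Ly6a at 385, 717, 941 and 1147 CPM.

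Germinal centre B-like cells, with at least 3 of 6 markers such as S1pr2 and Mef2b, had 10 or more cells in libraries 1 and 2, too few libraries for a call. In libraries 1 and 2, Ly6d had 156 and 99.98 CPM in germinal centre B-like cells, against 1846 and 1934 CPM in B-like cells. Ly6e had 684 and 621 CPM, against 1754 and 1800.3 CPM, and Ly6a 248 and 120.3 CPM, against 486 and 497 CPM. All 3 genes thus had lower values in both libraries. The share of all genes that were lower in both was not counted, so nothing is read from this count. Of the 787 Ly6a UMIs of the class, 220 came from 1 library 1 cell, without which that library had 141 CPM. Ly6d also stepped down with the number of germinal centre markers in all B cells: 2019 CPM with 0, 1390 CPM with 1, 494 CPM with 2, 266 CPM with 3, 185 CPM with 4 and 100.3 CPM with 5 or more. The 10 plasma cell-like cells of libraries 1 and 2 had Ly6a at 1819 and 1415 CPM, Ly6d at 452 and 664 CPM and Ly6e at 963 and 1315 CPM. In library 1, 1 cell held 88 of 153 Ly6a UMIs, and the level without it was 1081 CPM. For Ly6d, 1 cell held 25 of 38 UMIs there, and the level without it was 200 CPM.

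Plasmacytoid DC-like cells, gated on Siglech, Ccr9, Klk1, Cox6a2, Pacsin1 and Smim5, had the highest CPM of Ly6c2, Ly6d, Ly6a and Ly6e as summed over libraries. Monocyte-like cells exceeded them in Ly6c2 in libraries 3 and 4 and in Ly6e in library 4 (1940 CPM in plasmacytoid DC-like and 2588 CPM in monocyte-like cells). Conventional cDC1-like cells, the comparison for plasmacytoid DC-like cells among dendritic cells, had few counts of any of these genes but Ly6e. In libraries 1, 2 and 3, the ones with 10 cells in both classes, Ly6c2 had 2738, 1506 and 3434 CPM in plasmacytoid DC-like cells, against 34.0, 0 and 11.5 CPM in cDC1-like cells. Ly6d had 4116, 3289 and 2824 CPM, against 8.50, 0 and 22.9 CPM, and Ly6a 1874, 1783 and 2545 CPM, against 0, 39.3 and 160.3 CPM. Of the 14 Ly6a UMIs in cDC1-like cells of library 3, 12 came from 1 cell, and the level without it was 30.6 CPM. Ly6e had 2503, 2336 and 2493 CPM in plasmacytoid DC-like cells, against 1079, 1209 and 1168 CPM in cDC1-like cells. All 4 tested Ly6 genes were called higher. The log2 ratio was 7.31 (6.18 to 8.76) for Ly6c2 and 8.25 (6.89 to 10.13) for Ly6d. It was 5.31 (4.64 to 6.07) for Ly6a and 1.09 (0.92 to 1.27) for Ly6e. In this contrast 29.3% of 2098 genes were called, 20.1% higher and 9.25% lower. The Ly6e call was lost at 2-fold. With the stricter cell filter, with 1 more marker and after thinning, too few cells were left to make this contrast. Of 11 interferon-stimulated genes, 8 were called higher and 1 lower, led by Bst2 (log2 5.36), itself a surface marker of plasmacytoid cells, with a median of 1.37 against 0.11 over all genes.

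Most single plasmacytoid DC-like cells held UMIs of more than 1 of these genes. Of 51 cells thinned to 1500 UMIs, 42 had UMIs of both Ly6d and Ly6c2, 38 of both Ly6a and Ly6c2 and 38 of both Ly6a and Ly6d. Taken singly, Ly6d was in 46, Ly6c2 in 45 and Ly6a in 39 of the 51 cells. With each gene so frequent, most cells would hold both of a pair in any case, so nothing is read from the joint counts. Ly6c2 had a median of 22, 10, 22 and 35 UMIs per cell in libraries 1 to 4, with 0 UMIs in 3 of the 52 cells. Against B-like cells, Ly6c2 (log2 5.98, 5.87 to 6.09) and Ly6a (1.47, 1.37 to 1.57) were called higher in plasmacytoid DC-like cells, 2 of 4 tested Ly6 genes, where 28.7% of 10193 genes were called, 11.7% higher and 17.1% lower. The Ly6c2 call was lost when at least 5 expected counts were asked for in the smaller class. Ly6d had 4116, 3289 and 2824 CPM in plasmacytoid DC-like cells of libraries 1 to 3, against 1846, 1934 and 2096 CPM in B-like cells, and fell short of 1.5-fold in library 3 (log2 0.43). Without library 3 it was called. Of 29 interferon-stimulated genes, 7 were called higher and 8 lower than in B-like cells, with a median of 0.29 against 0.17 over all genes. T cell markers summed to at most 73.5 CPM in plasmacytoid DC-like cells of any library, and B cell markers to at most 133 CPM. Cells of this class could hold at most 2 T and 2 B cell markers, so the gate in part sets these sums. Mature DC markers summed to 749.7 CPM in library 4 and at most 33.2 CPM in the others. The 6 cDC2 markers summed to 730.5, 686, 1055 and 1191 CPM in plasmacytoid DC-like cells of libraries 1 to 4, with Clec10a at 279 to 445 CPM and Cd209a at 111 to 382 CPM, and their part in the Ly6 levels was not tested.

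Mature DC-like cells, the Fscn1 and Ccl22 expressing dendritic cells, were the class with least Ly6e. It had 68.99, 21.3 and 26.5 CPM in mature DC-like cells of libraries 1 to 3, against 1079, 1209 and 1168 CPM in cDC1-like cells, a log2 ratio of -4.77 (-5.04 to -4.50). Library 4, with 7 cDC1-like cells, had 47.0 CPM in mature DC-like cells. Ly6e was the 1 Ly6 gene with enough counts to be tested, and it was called lower, where 34.2% of 5866 genes were called, 22.4% higher and 11.8% lower. The other members were near 0 in these 413 cells: Ly6a had 9.24 CPM, Ly6d 6.16 CPM, Ly6c2 1.54 CPM and Ly6c1 0.514 CPM. Of 14 interferon-stimulated genes, 3 were called higher and 2 lower, with a median of 0.29 against 0.12 over all genes. In the 27 cDC2-like cells, all 98 Ly6c2 UMIs were in library 2 and 62.2% of them in 1 cell, and 32 of 39 Ly6d UMIs were in 1 cell, so both levels are those of a few cells.

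**Figure D3:**
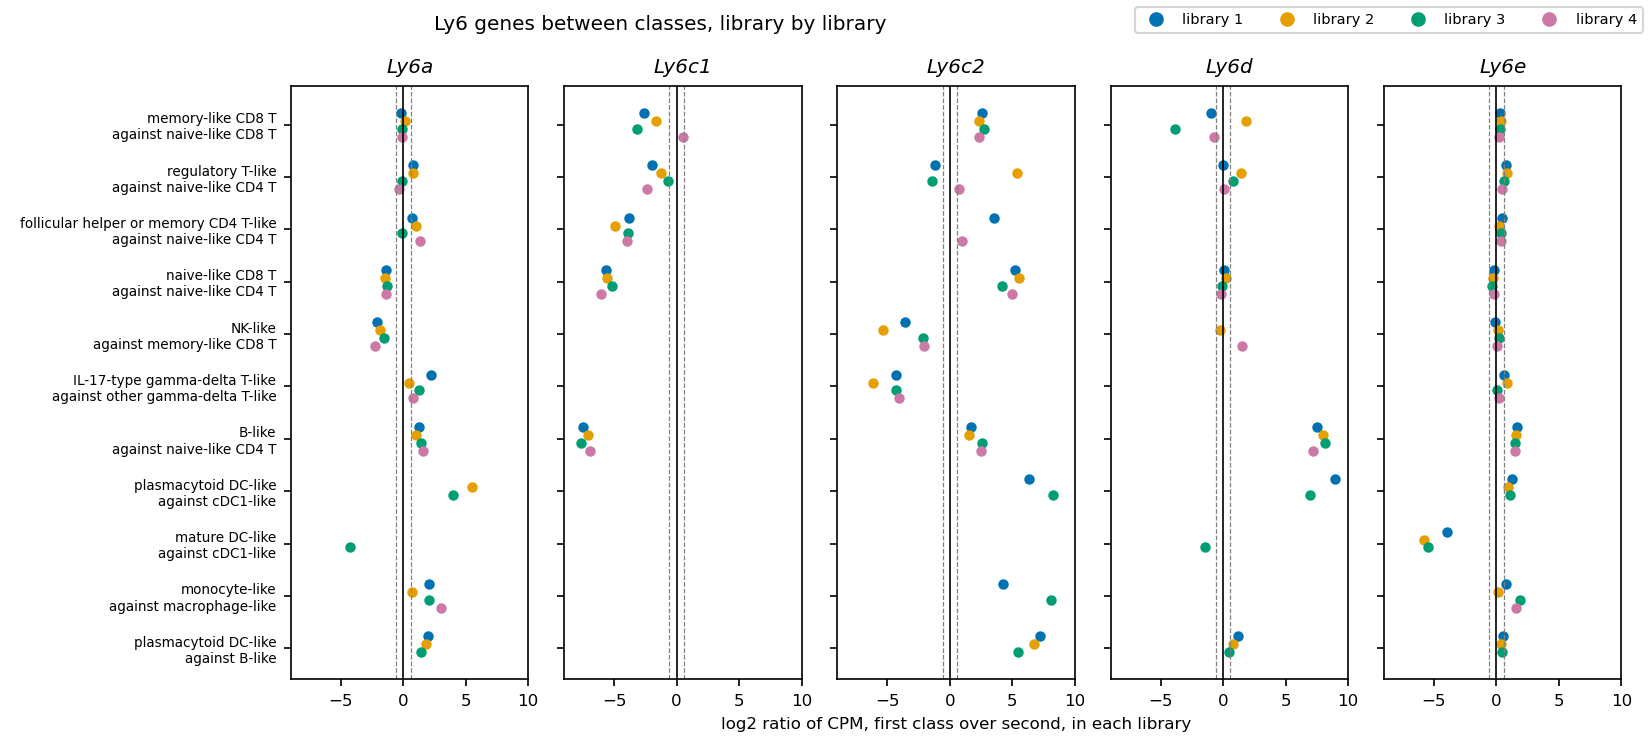
Log2 ratio of CPM between 2 classes (first over second) for Ly6a, Ly6c1, Ly6c2, Ly6d and Ly6e in each of 4 libraries (points), by comparison (rows); dashed lines mark 1.5-fold and a library with 0 counts in either class, or too few counts or cells, has no point. The Ly6c2 points of memory-like over naive-like CD8 T cells lie between 2.30 and 2.71, and those of Ly6c1 in naive-like CD8 over naive-like CD4 T cells between -6.02 and -5.20.

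Monocyte-like cells, gated on at least 4 of 9 markers such as Ccr2, Csf1r and Lyz2, had more Ly6c2 and Ly6a than macrophage-like cells, and their Ly6c2 level differed widely between libraries. Ly6c2 had 416, 128, 3497 and 3711 CPM in monocyte-like cells, against 22.1, 0, 13.1 and 0 CPM in macrophage-like cells. The classes did not overlap, and the log2 ratio over all libraries was 7.43 (5.88 to 9.71), with 3 UMIs in macrophage-like cells. Ly6a had 90.7, 75.1, 277 and 426 CPM in monocyte-like cells, against 22.1, 47.0, 65.6 and 53.3 CPM in macrophage-like cells, a log2 ratio of 2.30 (1.45 to 3.28). Both were called, 2 of 3 Ly6 genes tested, where 24.7% of 3091 genes were, 17.5% higher and 7.12% lower. The Ly6a call rested on 12 macrophage-like counts and was lost at a minimum of 30 counts, at 2-fold, after thinning, where Ly6e was called in its place, and with the mean of per-cell CPM. Ly6e had 1558, 1051, 2478 and 2588 CPM in monocyte-like cells, against 938, 940.3, 669 and 870.4 CPM in macrophage-like cells, and missed the call in library 2 (log2 0.16). Macrophage-like cells were shallow, with a median of 1115.5 UMIs. Of 25 interferon-stimulated genes, 9 were called higher and 0 lower in monocyte-like cells, with a median of 1.24 against 0.20 over all genes.

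The cells behind the monocyte-like levels were few, 18, 13, 15 and 22 in libraries 1 to 4. Of these, 10, 3, 13 and 19 had a Ly6c2 UMI, and the median was 1.5, 0, 22 and 26 UMIs per cell. Libraries 1 and 2 thus held more monocyte-like cells at or near 0. The 12 cells with exactly 4 monocyte markers, the minimum, numbered 3, 6, 2 and 1 and had 0 Ly6c2 UMIs among them. The 9 monocyte markers together summed to 9193, 10143, 19640 and 22884 CPM, all 9 detected in each library, and the 6 cDC2 markers to 667, 518, 554 and 636 CPM. Most of the cDC2 sum was Sirpa, at 512, 420.5, 547 and 597 CPM, which monocytes also express, while Cd209a had 80.0, 7.51, 0 and 0 CPM and Flt3 53.4, 45.0, 0 and 11.1 CPM. The part of the gate and of cDC2-type cells in the Ly6c2 difference between libraries was not tested.

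**Figure D4:**
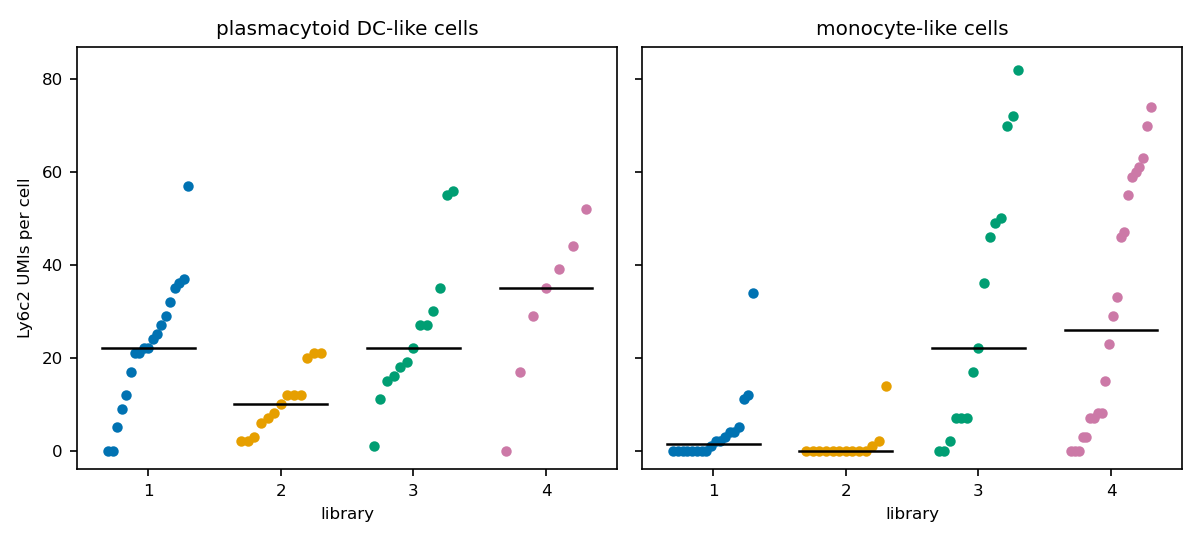
Ly6c2 UMIs per cell (vertical axis) in each plasmacytoid DC-like and monocyte-like cell (points, sorted within a library), by library (horizontal axis); the line is the median of the library. Medians were 22, 10, 22 and 35 UMIs in plasmacytoid DC-like cells and 1.5, 0, 22 and 26 UMIs in monocyte-like cells.

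Ly6g, the neutrophil antigen, had 41 UMIs in all cells that passed the filter, 37 of them in the 17 neutrophil-like cells. There it had 0, 1, 28 and 8 UMIs in libraries 1 to 4, or 660.1 CPM over the class (465 to 910). A single library 3 cell held 27 of these, and the level without it was 215 CPM. Of the 17 neutrophil-like cells, 5 had a Ly6g UMI at a median depth of 2818 UMIs. The other 4 UMIs were 2 in monocyte-like cells and 1 each in a B-like and a naive-like CD8 T cell. In 2354 naive-like CD4 T cells Ly6g was at 0 counts, which allows up to 0.219 CPM at 3 counts. Ly6c1 was at 0 in the neutrophil-like, macrophage-like, NK-like, plasma cell-like and both conventional DC-like classes, where 3 counts would be 7.72 CPM (NK-like) to 53.5 CPM (neutrophil-like).

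In the order of classes, the counting intervals of many neighbours met, which leaves their order unsettled and does not show that they are alike. For Ly6a the first 5 places were plasmacytoid DC-like (2022 CPM), plasma cell-like (1622 CPM), marginal zone-like B (872 CPM), B-like (732 CPM) and IL-17-type gamma-delta T-like cells (529 CPM), and the interval of the last (486 to 574 CPM) just met that of the next (393 to 486 CPM), follicular helper or memory CD4 T-like cells (438 CPM). For Ly6e they were plasmacytoid DC-like (2371 CPM), monocyte-like (1939 CPM), B-like (1761 CPM), marginal zone-like B (1520 CPM) and IL-17-type gamma-delta T-like cells (1289 CPM), and from there down to memory-like CD8 T cells (627 CPM) each interval met that of the class after it. For Ly6d the intervals of marginal zone-like B and B-like cells met, those of cDC2-like (181 CPM) and germinal centre B-like cells met, and from macrophage-like cells (33.9 CPM) down each interval met the next. For Ly6c2, memory-like CD8 T (1341 CPM) and other gamma-delta T-like cells (994 CPM) were apart, and the interval of NK-like cells (249 CPM) met those of both dividing T-like (274 CPM) and naive-like CD8 T cells (244 CPM), which did not meet each other. These are sums over libraries that themselves differ, so a class is less certain than its counting interval.

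The spread over libraries was widest for Ly6c2. Among pairs of a gene and a class with at least 10 cells in each library and at least 50 CPM in 1 of them, the highest library was at least 2-fold the lowest in 9 of 11 classes for Ly6c2, 5 of 12 for Ly6a, 2 of 14 for Ly6e, 1 of 3 for Ly6d and 1 of 2 for Ly6c1. Some of the Ly6c2 classes reached 50 CPM only through a single cell. Without it, regulatory T-like cells had 4.29 CPM in library 2 instead of 203 CPM. Follicular helper or memory CD4 T-like cells had 31.1 CPM in library 1 instead of 65.7 CPM, and marginal zone-like B cells 45.9 CPM in library 4 instead of 64.2 CPM. Small classes spread widely for most genes: 54.4% of genes at this level in monocyte-like, 68.5% in NK-like, 77.3% in macrophage-like, 54.7% in follicular helper or memory CD4 T-like and 49.9% in IL-17-type gamma-delta T-like cells passed the same 2-fold. The share was 37.2% in other gamma-delta T-like, 36.6% in marginal zone-like B and 18.4% in regulatory T-like cells. In the largest classes few genes did, 0.676% in naive-like CD4 T, 0.455% in naive-like CD8 T, 0.523% in memory-like CD8 T and 1.04% in B-like cells. Ly6c2 in B-like cells, with 18.4, 14.0, 79.4 and 50.3 CPM, was among that 1.04%, with a ratio of 5.67. Myeloid genes varied beside it in the same cells: Lyz2 had 30.2, 37.8, 97.9 and 61.1 CPM, S100a8 23.3, 0, 144 and 0.252 CPM, and the 9 monocyte markers summed to 377, 366, 619 and 529 CPM. Their part in the Ly6c2 spread was not tested. Ly6a in B-like cells had a ratio of 1.92, just under the limit. In dividing T-like cells Ly6c2 had a ratio of 2.61, where 4.02% of genes passed, and in mature DC-like cells Ly6e had 3.24, where 7.06% did.

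Interferon-stimulated genes varied over the same libraries. The summed level of 30 such genes was 2427, 2368, 4838 and 4739 CPM in B-like cells of libraries 1 to 4, and 7118, 4295, 16436 and 15402 CPM in monocyte-like cells. In naive-like CD4 T cells it was 2200.4, 2327, 3445 and 3163 CPM. Ly6a was likewise higher in libraries 3 and 4 of the larger classes, with 486, 497, 930.4 and 903 CPM in B-like, 209.5, 241, 344 and 308 CPM in naive-like CD4 T and 79.6, 87.0, 136 and 118 CPM in naive-like CD8 T cells. Not every smaller class followed. In regulatory T-like cells Ly6a was 367, 400.3, 327 and 248 CPM, while the summed genes had 4250, 4837, 6068 and 5676 CPM. In IL-17-type gamma-delta T-like cells Ly6a was 587, 409, 618 and 474 CPM, while the summed genes had 1643, 1634, 3124 and 2221 CPM. Ly6e differed by class: it had 1754, 1800.3, 1832 and 1685 CPM in B-like cells, and 1558, 1051, 2478 and 2588 CPM in monocyte-like cells, where it was higher in libraries 3 and 4. The values are given side by side; no label says which libraries came from treated mice, and no test was made.

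**Figure D5:**
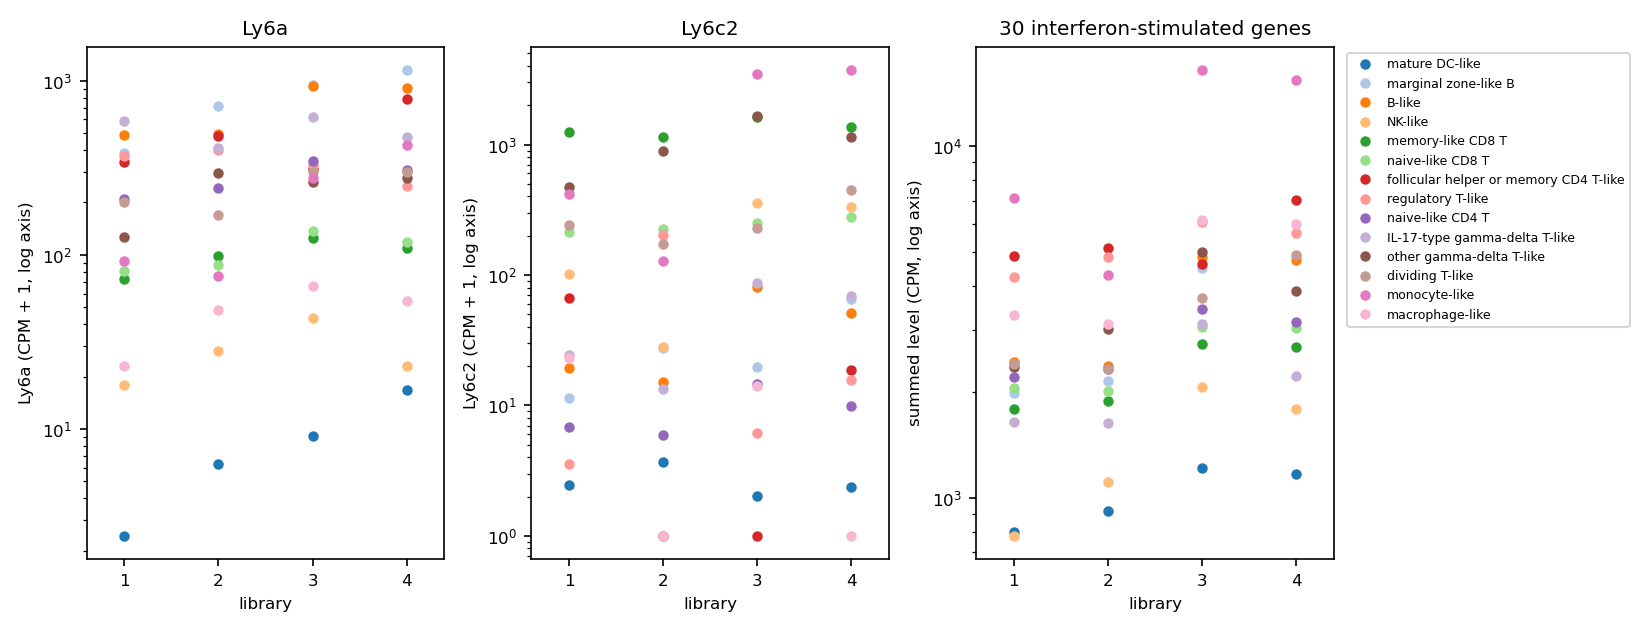
Level of Ly6a and Ly6c2 (CPM + 1, log axis) and summed level of 30 interferon-stimulated genes (CPM, log axis) in libraries 1 to 4 (horizontal axis); each colour is 1 of the 14 classes with at least 10 cells in each library. In B-like cells Ly6a is 486, 497, 930.4 and 903 CPM and the summed genes are 2427, 2368, 4838 and 4739 CPM.

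Within a class, cells with a UMI of a Ly6 gene were set against cells without, all thinned to 1500 UMIs for that choice, with other genes compared by the same 1.5-fold rule and at least 5 expected counts in the smaller set. In naive-like CD4 T cells, 664 with a Ly6a UMI and 1688 without differed in 20 of 7839 genes (0.255%), 14 higher (0.179%) and 6 lower (0.0765%). The higher ones included the interferon-stimulated Oasl2 (log2 1.81), Ifit3 (1.61) and Isg15 (1.00), and 1 Ly6 gene, Ly6c1 (1.09), at 233 CPM in cells with Ly6a and 109 CPM in cells without. Of 24 interferon-stimulated genes tested, 3 were called higher and 0 lower, with a median log2 ratio of 0.69 against -0.03 over all genes tested. In B-like cells, 4653 with a Ly6a UMI and 3837 without differed in 60 of 10101 genes (0.594%), 12 higher (0.119%) and 48 lower (0.475%). There 5 of 29 interferon-stimulated genes were called higher and 0 lower, with a median of 0.80 against -0.05; Ifit3 had 1.49, Isg15 1.14 and Irf7 1.13. The lower genes of B-like cells included Apol7c (-3.18), Ccl22 (-3.15) and Fscn1 (-2.53), Ccl22 and Fscn1 being gating markers of mature DC-like cells. Libraries 1 to 4 gave 809, 777, 1321 and 1746 of the cells with Ly6a, against 1072, 1069, 732 and 964 of those without, so that the summed ratios also carry differences between libraries, while a call needs each library by itself.

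Cells with Ly6c1 or Ly6c2 differed in other genes. In naive-like CD4 T cells, 390 with a Ly6c1 UMI and 1962 without differed in 26 of 6777 genes (0.384%), 4 higher (0.059%) and 22 lower (0.325%). Those lower included S100a4 (log2 -4.57), S100a6 (-3.21), Ccl5 (-2.91) and Id2 (-1.47), but also H2-Eb1 (-2.07), a class II gene of antigen-presenting cells, and of 21 interferon-stimulated genes 0 were called. Ly6a had 411 CPM in cells with Ly6c1 and 255 CPM in cells without (log2 0.69), and was not called. In naive-like CD8 T cells, 803 with a Ly6c2 UMI and 3356 without differed in 36 of 8592 genes (0.419%), 8 higher (0.0931%) and 28 lower (0.326%), the lower ones including S100a4 (-3.50), Dntt (-2.03), Sox4 (-1.11) and Ccr9 (-1.07), and the class II genes H2-Aa (-1.66) and Cd74 (-1.28). Dntt encodes the enzyme that adds bases to rearranging receptor genes. All genes named from these splits were picked after their values were seen, and no theme was tested. Of 25 interferon-stimulated genes, 0 were called there. The few B-like cells with a Ly6c2 UMI, 255 against 8235, had more Lyz2 (5.46) and Tyrobp (2.30), genes of myeloid cells, among 18 of 3916 genes called (0.46%), 14 higher (0.358%) and 4 lower (0.102%); the part of mixed droplets was not tested.

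Across the 18 classes with at least 20 cells, the levels of the Ly6 genes were compared with those of 5730 genes outside the Ly6 superfamily by Pearson's r of log2(CPM + 1), as a description over classes that share libraries. Ly6d was most like Snx29 (r = 0.93), Iglc3 (0.93) and B3gnt8 (0.91). Ly6c1 was most like Zfp281 (0.81), Cd40lg (0.80), which encodes the CD40 ligand of helper T cells, and Trat1 (0.78), a T cell receptor adaptor. Ly6c2 was most like Runx3 (0.78), a transcription factor of cytotoxic lymphocytes, Nab1 (0.77) and Cd7 (0.76). Ly6a was most like Rpf1 (0.83), Ppif (0.81) and Sys1 (0.81), and Ly6e most like Eif4g3 (0.88), Rasa3 (0.82) and Parvg (0.82). Among the 6 themselves, Ly6a and Ly6e were most alike (0.75), and Ly6c1 and Ly6c2, despite their near-identical transcripts, were not (0.04).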

How the data were processed

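The authors deposited 1 count matrix of raw UMI counts per gene and cell barcode, not normalized, for all libraries together. It was made with Cell Ranger 5.0.0, per the file headers, and on genome build mm10, per the submitters' processing notes. The handling of reads that match several genes and of strand is not given in the sources used here, nor whether depth was evened between libraries. Library numbers are not tied to samples, so no group comparison was made.

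Cells with at least 300 genes and at most 10% mitochondrial UMIs were kept. A cell entered a class when it had UMIs of enough of that class's markers (for example at least 3 of 6 T or B cell markers) and few of others; 1118 cells with T and B markers, 39 with over 1% globin UMIs and 8013 cells in all stayed outside. Scrublet (scanpy 1.11.5) called 1.87%, 2.07%, 3.63% and 5.34% of cells doublets; they were kept, and left out as an alternative. For each class, the counts of a library's cells were added up and divided by their total to give CPM. The comparison rule was tested on simulated data. Intervals are exact Poisson or binomial at 95% and cover counting error only. Shares used cells thinned to 1500 UMIs. The text names the 6 genes, for each the 3 genes most like it over classes, and called genes of the lists (Ly6 superfamily, interferon-stimulated, interferon receptor and signalling, memory and effector CD8); genes named within a class were chosen after their values were seen. The genes, lists, markers and gate thresholds were chosen with earlier results of these data known. Alternatives were other minimums, folds and filters, doublets out, 1 more marker, thinning, per-cell means, TMM scaling (edgeR 4.0.16 in R 4.3.3) and each library left out. Calculations used Python 3.11.15, numpy 2.4.6, scipy 1.17.1, pandas 2.3.3 and biopython 1.88, and matplotlib 3.10.9 drew the plots.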

Additional observations from a re-analysis of the deposited data

Results flagged for a closer look

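A part of the Ly6 counts lay in cells that the class comparisons did not use, and it is given here because it is above what a count of 0 allows. Cells that passed the filter but stayed outside every class held 15097 UMIs of Ly6a, 3257 of Ly6c1, 11977 of Ly6c2, 13251 of Ly6d and 42088 of Ly6e, and 0 of Ly6g. For Ly6c1 this was 59.0% of all its UMIs in filtered cells, against 14.4% for Ly6d. The Ly6c1 counts lay mostly in T cells: 3058 cells with T markers and no Cd4, Cd8a or Cd8b1 UMI held 1917 of them, at 120.2 CPM, near the 145 CPM of naive-like CD4 T cells, which must have a Cd4 UMI. Cells with T and B markers, 1118 in number, held 8850 Ly6d UMIs. Barcodes below the filter held 1224 UMIs of Ly6a, 51 of Ly6c1, 648 of Ly6c2, 2930 of Ly6d and 4764 of Ly6e. No cause was tested.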

How the results depend on the processing

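Under 15 settings, 169 counts were compared with their main value. They were counts of called Ly6 genes, or of gene and class pairs that spread 2-fold over libraries. Of the 169, 146 stayed within 1.5 times their main value and 23 moved. Of 523 single ratios 0 reversed, 12 lost their call and 19 gained one. In IL-17-type against other gamma-delta T-like cells the count of 1 was 2 with no minimum of counts (Ly6c1 added) and 2 with 1 more marker, cells with RNA of another lineage left out, thinning or per-cell means (Ly6a added). In regulatory T-like against naive-like CD4 T cells the count of 1 was 0 at 2-fold and with at least 500 genes and at most 5% mitochondrial UMIs (Ly6c1 lost), 2 with 1 more marker or per-cell means (Ly6e added) and 3 after thinning (Ly6d and Ly6e added). In memory-like against naive-like CD8 T cells the count of 1 was 2 with the stricter cell filter (Ly6d added). Follicular helper or memory CD4 T-like against naive-like CD4 T cells went to 1 at 30 counts and at 5 expected counts in the smaller class, a setting chosen after seeing the data (Ly6d lost). NK-like against memory-like CD8 T cells went to 1 with 1 more marker and thinning, and monocyte-like against macrophage-like cells to 1 at 30 counts, 2-fold and per-cell means (Ly6a lost each time); thinning also lost Ly6a in the monocyte-like contrast but added Ly6e. Plasmacytoid DC-like against B-like cells went to 1 at 5 expected counts (Ly6c2 lost). The causes were not tested.

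Leaving out each library in turn gave 1 to 2 called genes for memory-like against naive-like CD8 T cells (Ly6d without library 2, Ly6c1 without library 4), 1 to 2 for regulatory T-like against naive-like CD4 T cells (Ly6e without library 4) and 1 to 2 for IL-17-type against other gamma-delta T-like cells (Ly6a without library 2). Ly6a was also added in follicular helper or memory CD4 T-like against naive-like CD4 T cells without library 3. Ly6e was added in monocyte-like against macrophage-like cells without library 2, and Ly6d in plasmacytoid DC-like against B-like cells without library 3. These runs asked for at least 2 usable libraries instead of 3. TMM scaling shifted the median of all genes by -0.66 (NK-like against memory-like CD8 T) to 0.29 (mature DC-like against cDC1-like) on the log2 scale and changed no call of a Ly6 gene. Levels moved more: 99 of 114 class levels stayed within their counting interval or library range with TMM scaling, and 105 of 120 after thinning. No paired analysis was possible because the calls come from no fitted test that could take a block; ratios between classes were already taken within each library. Depth limits Ly6g (41 UMIs), NK-like Ly6a (12 UMIs) and classes under 20 cells.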

Other observations

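Other Ly6 superfamily genes were scarce. Of 39 listed, 35 were in the count table, 24 had a UMI in filtered cells and 5 reached 20 CPM in a class. Ly6i, which lies at chr15:74979534-74983430 beside Ly6a, stood at 436 CPM in monocyte-like cells, with 208, 105, 592 and 802 CPM in libraries 1 to 4, and was called higher than in macrophage-like cells, from 277 UMIs against 1. Like Ly6c2, it was higher in libraries 3 and 4. Ly6g5b was at 80.2 CPM in IL-17-type gamma-delta T-like cells, against 7.12 CPM in the other gamma-delta T-like cells (log2 3.49, called). Plaur, the urokinase receptor, had 126 CPM in plasmacytoid DC-like, 49.6 CPM in B-like and 178 CPM in neutrophil-like cells, and Lynx1 had 84.9 CPM in plasmacytoid DC-like and 49.2 CPM in B-like cells. Cd177, another neutrophil antigen, had 33.1 CPM in monocyte-like and 53.5 CPM in neutrophil-like cells, from 21 and 3 UMIs. Of the superfamily genes tested, memory-like against naive-like CD8 T cells had 0 of 5 called higher and 2 lower, Lynx1 (log2 -2.06) and Plaur (-1.75), with a median of -1.42 against -0.02 over all genes, where 2.29% of all genes tested were called higher and 1.08% lower. B-like against naive-like CD4 T cells had 3 of 6 higher and 1 lower, with a median of 2.36 against 0.14, where 16.7% of all genes were called higher and 9.73% lower.

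Interferon receptor and signalling genes were called in some of the same contrasts. Of 8 listed, 4 of 6 tested were higher in monocyte-like than macrophage-like cells and 0 lower, led by Ifnar1 (log2 2.29), where 17.5% of all genes were called higher and 7.12% lower. Plasmacytoid DC-like cells had 2 of 5 higher than cDC1-like cells and 1 lower, with Ifnar2 at 2.81 and Ifngr1 at -2.66, where 20.1% of all genes were called higher and 9.25% lower. Memory-like CD8 T cells had Ifngr2 lower than naive-like ones (-1.64) and Ifngr1 higher (1.01). For the genes of this list that were tested, the median log2 ratio was 1.39 in the monocyte-like, 0.64 in the plasmacytoid DC-like and 0.17 in the memory-like CD8 contrast, against 0.20, 0.11 and -0.02 over all genes tested.

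The 16 memory and effector CD8 genes, several of which are gating markers, had 8 of 16 called higher and 5 lower in NK-like than in memory-like CD8 T cells (median 1.42 against 0.38 over all genes, of which 7.84% were called higher and 5.01% lower). In IL-17-type against other gamma-delta T-like cells, 2 of 15 were called higher and 11 lower (median -1.63 against 0.18 over all genes, of which 5.18% were called higher and 2.91% lower), among them Eomes (-3.59) and Cxcr3 (-3.48).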
